A study of Mus musculus with 9 samples.

Results

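The Notch genes described here are 4 receptors (Notch1, Notch2, Notch3 and Notch4), 4 ligands (Jag1, Jag2, Dll1 and Dll4) and 2 target genes (Hes1 and Hey1). They were chosen by name, with earlier results of these data known, and all 10 were measured among 19938 genes. Counts of calls among them therefore describe this list only. Each had 1 array feature annotated with its symbol alone, which supplied its values. Gene expression was measured in 9 mouse mammary tumour samples, 3 each from the transplantable mammary tumour cell lines NDL, Met1 and SSM2. Cultured cells were placed bilaterally in the mammary fat pads of FVB/NJ females, 6 to 8 weeks old, whose own mammary epithelium had not been cleared and so remained. Tumours were taken once 5 to 10 mm wide and frozen, and their total RNA was hybridised to Affymetrix Mouse Gene 1.0 ST arrays. By way of background, the ErbB2 (neu) oncogene in activated form drives NDL, polyoma middle T drove the tumour behind Met1, and SSM2 is positive for the oestrogen receptor. The labels give no alleles. No group was treated, and each line is 1 cell line, so a difference between lines holds for these lines and not for a class of tumour.

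Notch signalling passes between touching cells. A Jagged or Delta-like ligand on one cell binds a Notch receptor on its neighbour, ADAM proteases and γ-secretase then cut the receptor, and the freed intracellular part enters the nucleus, where it joins the DNA-binding protein Rbpj and a Mastermind coactivator at target genes such as those of the Hes and Hey repressors. In the mammary gland the pathway is known for its part in luminal cell fate, and Notch4 was first found as a site where mouse mammary tumour virus inserts in mammary tumours. In tumour tissue Notch4 and Dll4 are also known from endothelium and Notch3 from mural cells of vessels.

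Values are log2 RMA signals (background-corrected, quantile-normalised probe brightness summarised per feature), whose precision is limited by having 3 arrays a line. The upper quartile of gene signal was lowest in NDL replicates 1 and 2 (7.85 and 7.84, against 7.98 to 8.09 in the other 7 arrays), so results were also computed without this pair. Whether the samples of a line came from separate animals is not stated, so p-values measure the spread between these samples, which may be technical. In whole tumours, fewer cells of a type and less RNA per cell cannot be told apart. The 9 epithelial markers, such as Epcam and Krt8, had a list mean of 10.13 ± 0.11 in NDL tumours, 7.07 ± 0.76 in Met1 tumours and 11.34 ± 0.11 in SSM2 tumours (SD, n = 3). Met1 was the low line for them, and its replicate 3 was the lowest array (6.20, against 7.42 and 7.59 in Met1 replicates 1 and 2).

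The Notch genes differed between the lines in both directions. The ligand Dll1 and the target Hey1 were highest in NDL, Jag1 was lowest there, Notch3 was lowest in Met1 and Notch1 was lowest in SSM2. In limma's F-test over the 3 lines, 6 of the 10 genes passed an adjusted p of 0.05 (Benjamini-Hochberg over all genes), where 25.1% of all genes did. The adjusted p was 0.000109 for Notch3, 0.000281 for Jag1, 0.000538 for Hey1, 0.00106 for Dll1, 0.00195 for Notch1 and 0.00418 for Notch4. It lay between 0.313 and 0.652 for Notch2, Dll4, Jag2 and Hes1.

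In pairs of lines, NDL against Met1 gave 5 calls among the 10 genes in limma, 3 higher in NDL (Notch3, Dll1 and Hey1) and 2 lower (Notch4 and Jag1), beside 19.1% of all genes called (8.88% higher and 10.2% lower). NDL against SSM2 gave 4 calls, 3 higher in NDL (Notch1, Dll1 and Hey1) and 1 lower (Jag1), beside 16.9% of all genes (9.35% higher and 7.52% lower). Met1 against SSM2 also gave 4 calls, 2 higher in Met1 (Notch1 and Notch4) and 2 lower (Notch3 and Jag1), beside 11.8% of all genes (7.1% higher and 4.71% lower). The arrays of the lines did not overlap in 6, 5 and 5 of the 10 genes in these 3 comparisons, where 38.2%, 31.6% and 31.7% of all genes had none. Among genes with a mean signal above the median, where all the Notch genes but Jag2 lay, limma called 33.1%, 28.1% and 20.1%. The comparisons share arrays, so their calls are not independent of each other. The median size of the log2 difference over the 10 genes was 0.56, 0.41 and 0.57 in these 3 comparisons, and over all genes 0.25, 0.28 and 0.18.

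**Figure D1:**
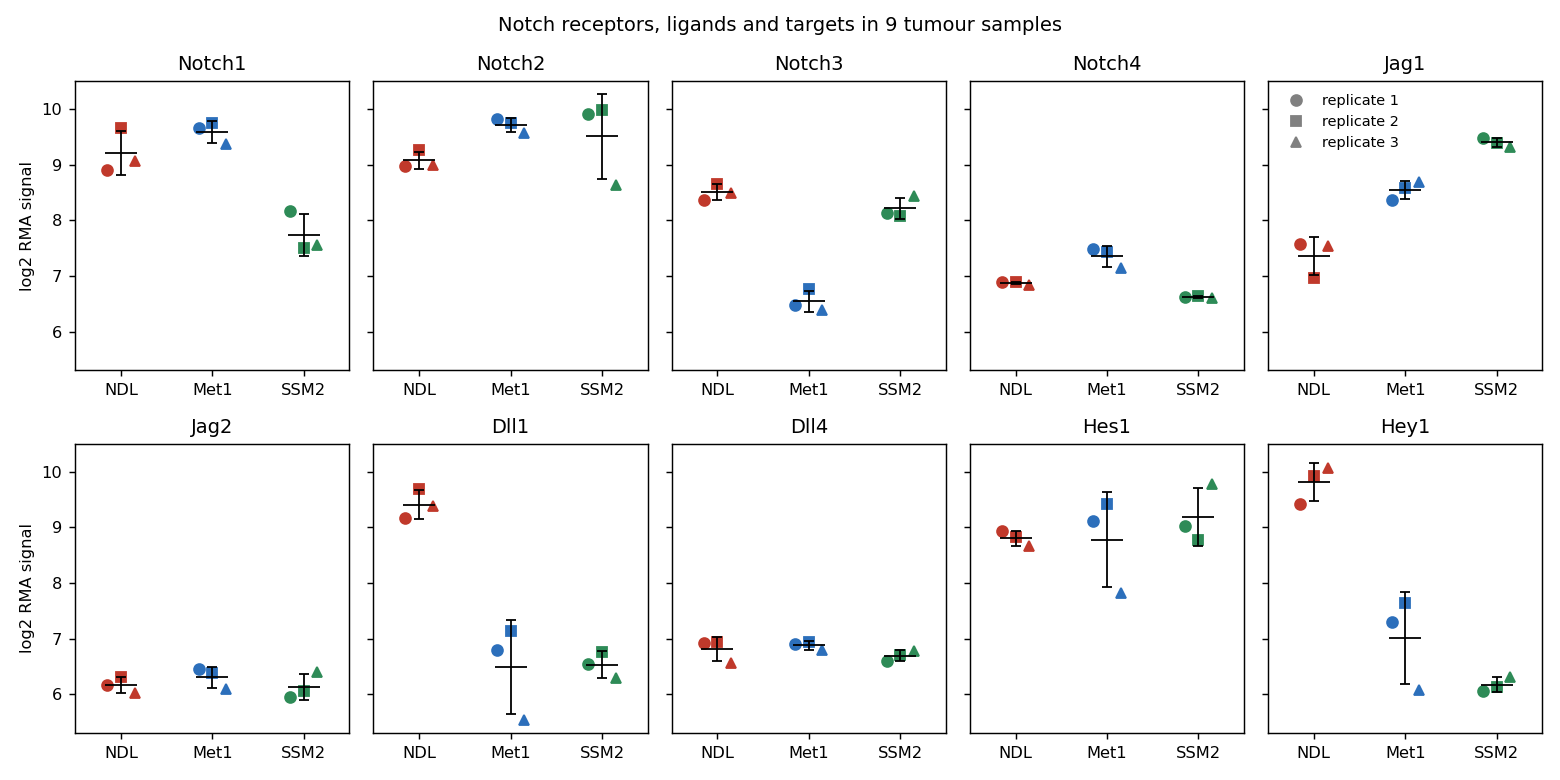
Log2 RMA signal (vertical axis) of each of the 10 Notch genes in NDL, Met1 and SSM2 tumour samples, 3 arrays a line; marker shapes give the replicate, the long bar the mean and the error bar the SD. Dll1 and Hey1 stand highest in NDL (means 9.41 and 9.81) and Jag1 lowest there (7.36), while Notch3 is lowest in Met1 (6.54) and Notch1 lowest in SSM2 (7.74).

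Among the ligands, Dll1, a Delta-like ligand, stood at 9.16, 9.68 and 9.39 in NDL, 6.79, 7.14 and 5.54 in Met1 and 6.55, 6.76 and 6.29 in SSM2 (log2 signal, replicates 1 to 3). Every NDL array lay above every array of the other lines, and Met1 and SSM2 overlapped. Dll1 was 7.57-fold higher in NDL than in Met1 (log2 difference 2.92, SE 0.37, limma adjusted p = 0.00112) and 7.35-fold higher than in SSM2 (2.88, SE 0.37, limma adjusted p = 0.00144). Without NDL replicates 1 and 2 the difference from SSM2 was 2.85, with an adjusted p = 0.0512 in limma. Met1 and SSM2 differed by -0.04 with a 95% interval from -0.89 to 0.81 (limma adjusted p = 0.972).

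Jag1, a Jagged ligand, ran in another order. It stood at 7.58, 6.96 and 7.53 in NDL, 8.37, 8.59 and 8.69 in Met1 and 9.48, 9.40 and 9.33 in SSM2, and no 2 lines overlapped. NDL stood 2.29-fold below Met1 (log2 difference -1.19, SE 0.17, limma adjusted p = 0.00212) and 4.13-fold below SSM2 (-2.05, SE 0.17, limma adjusted p = 0.000168). Met1 was 1.80-fold below SSM2 (-0.85, SE 0.17, limma adjusted p = 0.0154). That last call ended without Met1 replicate 1 (adjusted p = 0.069) and without Met1 replicate 2 (adjusted p = 0.0519, both in limma).

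The stretches of 250 bases before the annotated starts of Dll1, which has 2, and Jag1 are shown because these ligands had NDL at opposite ends of the order of lines. They are RefSeq sequence of GRCm38.p6, read 5′ to 3′ on the gene's strand, which is the minus strand for both; capitals mark CACGCG on either strand, a class C site of the kind Hes and Hey proteins bind.
Dll1 first window (chr17:15375824-15376073): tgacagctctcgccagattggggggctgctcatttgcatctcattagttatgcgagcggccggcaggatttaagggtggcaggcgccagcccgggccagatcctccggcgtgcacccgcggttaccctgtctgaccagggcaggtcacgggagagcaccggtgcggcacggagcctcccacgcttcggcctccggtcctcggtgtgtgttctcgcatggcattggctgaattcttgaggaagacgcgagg
Dll1 second window (chr17:15376933-15377182): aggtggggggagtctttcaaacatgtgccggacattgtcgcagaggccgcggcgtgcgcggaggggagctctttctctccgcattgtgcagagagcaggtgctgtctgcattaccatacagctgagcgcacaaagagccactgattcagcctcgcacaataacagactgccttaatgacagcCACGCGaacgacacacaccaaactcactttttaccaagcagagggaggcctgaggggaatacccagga
Jag1 (chr2:137116521-137116770): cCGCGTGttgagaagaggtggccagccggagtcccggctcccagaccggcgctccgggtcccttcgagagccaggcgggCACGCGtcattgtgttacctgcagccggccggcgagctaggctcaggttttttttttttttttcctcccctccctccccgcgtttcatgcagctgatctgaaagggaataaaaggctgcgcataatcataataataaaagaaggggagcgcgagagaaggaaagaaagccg
The site was found 68 bases before the start in the second Dll1 window and at 171 and 249 bases in Jag1 (counted to the first base of the site), while the first Dll1 window held none. Promoter sequence was at hand for 8 of the 10 genes (9 windows), not for Hes1 and Hey1. Of these windows 4 held CACGCG (Notch2, Jag1, Dll4 and 1 of Dll1), against 7.62% of 32851 windows of the same length. None held TGGGAA, the core that Rbpj binds, or the E-box CACGTG on either strand, which were in 21.6% and 6.02% of all windows. The windows of the Notch genes were 56.0% to 87.2% G and C, where the median of all windows was 52.4%. A match is only a run of letters and does not show binding.

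The other 2 ligands passed in no comparison. Jag2, a second Jagged ligand, ranged from 5.95 to 6.45 over the 9 arrays, with limma adjusted p of 0.570, 0.904 and 0.627 for NDL against Met1, NDL against SSM2 and Met1 against SSM2. Dll4, the Delta-like ligand known from sprouting endothelium, ranged from 6.56 to 6.94 (limma adjusted p = 0.737, 0.533 and 0.473). Their 95% intervals stayed between -0.49 and 0.52 on the log2 scale.

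**Figure D2:**
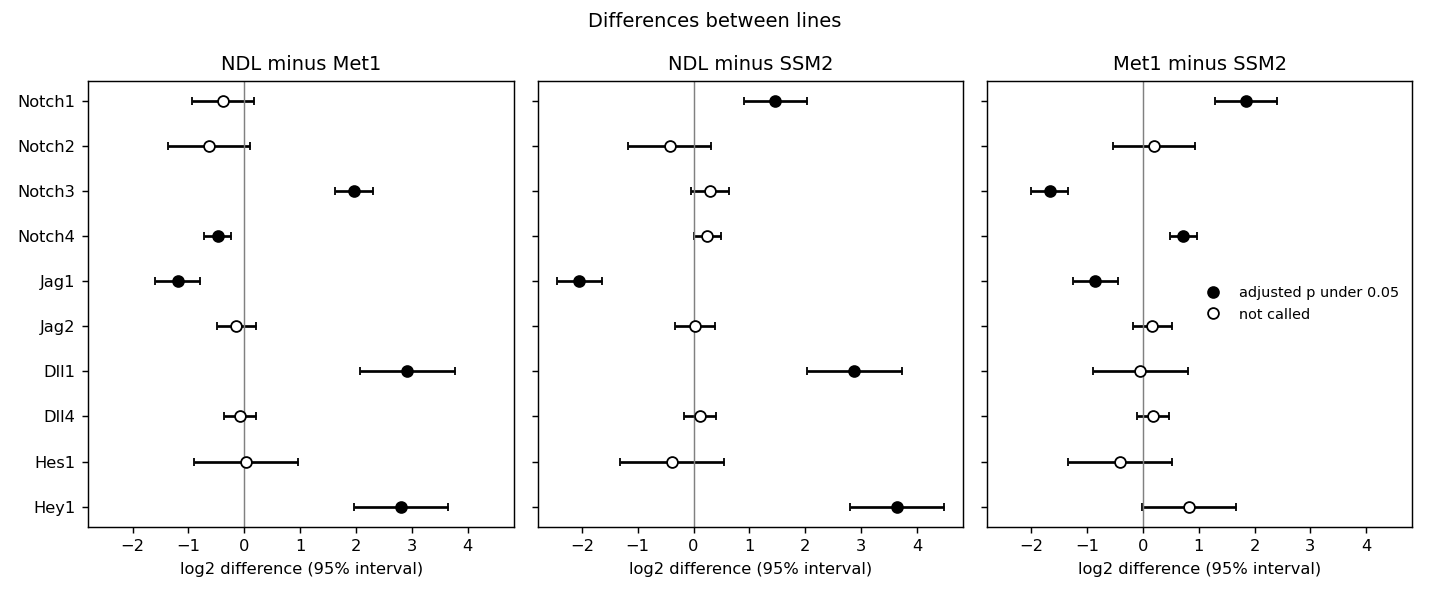
Log2 difference between lines (horizontal axis, first line minus second) with its 95% interval from limma for the 10 Notch genes, in 3 panels; filled points passed an adjusted p of 0.05 over all genes. Dll1 and Hey1 lie furthest to the right in both comparisons of NDL (2.80 to 3.64), and Jag1 lies to the left in each panel (-0.85 to -2.05).

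Among the receptors, Notch3 stood at 8.37, 8.66 and 8.50 in NDL, 6.47, 6.76 and 6.39 in Met1 and 8.13, 8.07 and 8.43 in SSM2. The Met1 arrays all lay below the rest, and NDL and SSM2 overlapped. Notch3 was 3.91-fold higher in NDL than in Met1 (log2 difference 1.97, SE 0.15, limma adjusted p = 8.75e-05) and 3.18-fold lower in Met1 than in SSM2 (-1.67, SE 0.15, limma adjusted p = 0.000304). NDL and SSM2 differed by 0.30 with an interval from -0.04 to 0.63 (limma adjusted p = 0.186). Both calls held in every fit with 1 array left out and without NDL replicates 1 and 2.

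Several cell type markers were low in Met1 beside Notch3. The macrophage list ran the other way, with means of 8.40 in NDL, 9.70 in Met1 and 8.63 in SSM2. Of the 9 epithelial markers, 8 passed as higher in NDL against Met1, and all 9 passed as lower in Met1 against SSM2. The 9 mural markers had array means between 7.15 and 7.28 (NDL), 6.57 and 7.03 (Met1) and 7.42 and 7.89 (SSM2), and 3 (Cspg4, Abcc9 and Acta2) were called in both comparisons of Met1, each lower in Met1. The mural marker Pdgfrb, not called in any comparison, averaged 8.21 in NDL, 9.05 in Met1 and 8.85 in SSM2. Among fibroblast markers, the collagen genes Col1a2 and Col3a1 were called in both comparisons of Met1, each lower in Met1, and Col1a1 was called lower in Met1 than in NDL, while Dpt and Pdgfra were called higher in Met1 in both. The fibroblast list means were 8.65 (NDL), 8.44 (Met1) and 9.54 (SSM2), and the adipocyte list means 6.05, 5.48 and 6.38. The part of these markers in the Notch3 result was not tested.

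Notch1, the receptor best known from T cell development, stood at 8.91, 9.66 and 9.06 in NDL, 9.66, 9.75 and 9.37 in Met1 and 8.17, 7.49 and 7.56 in SSM2. The SSM2 arrays all lay below the others. It was 2.76-fold higher in NDL (log2 difference 1.47, SE 0.24, limma adjusted p = 0.0051) and 3.6-fold higher in Met1 (1.85, SE 0.24, limma adjusted p = 0.00203) than in SSM2. Between NDL and Met1 the difference was -0.38 (interval -0.94 to 0.18, limma adjusted p = 0.315). Without NDL replicates 1 and 2 the NDL call against SSM2 ended (1.32, limma adjusted p = 0.0665), as it did in limma's test against a minimum fold of 1.5 (adjusted p = 0.0829). The 6 measured T cell markers had list means of 5.68 ± 0.32 (NDL), 6.08 ± 0.20 (Met1) and 5.41 ± 0.43 (SSM2; SD, n = 3). None was called by limma between NDL and SSM2, where Notch1 was (1 at an unadjusted p under 0.05), and Cd3g and Cd8a were called in both comparisons of Met1, each higher in Met1. Their part in the Notch1 result was not tested.

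Notch4 stood at 6.89, 6.89 and 6.85 in NDL, 7.48, 7.43 and 7.14 in Met1 and 6.63, 6.65 and 6.60 in SSM2. No 2 lines overlapped, though the steps were small. NDL stood 1.39-fold below Met1 (log2 difference -0.48, SE 0.11, limma adjusted p = 0.0158). Met1 stood 1.65-fold above SSM2 (0.73, SE 0.11, limma adjusted p = 0.00352). NDL and SSM2 differed by 0.25 with an interval up to 0.49 (limma adjusted p = 0.144). The call between NDL and Met1 ended without NDL replicate 1, Met1 replicate 1 or Met1 replicate 2 (limma adjusted p from 0.0518 to 0.0693), without NDL replicates 1 and 2 (0.109) and after quantile normalisation over genes (-0.36, adjusted p = 0.0862).

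The 12 endothelial markers ran in another order than Notch4, with list means of 6.87 ± 0.06 (NDL), 7.04 ± 0.14 (Met1) and 7.33 ± 0.33 (SSM2; SD, n = 3). Of these 12, Flt1, a VEGF receptor, was the 1 called between NDL and Met1, lower in NDL, and Flt1 was higher and Vwf lower in Met1 than in SSM2. Between NDL and SSM2, Pecam1, Emcn and Vwf were lower in NDL. The part of these cells in the Notch4 result was not tested.

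Notch2 stood at 8.99, 9.26 and 9.0 in NDL, 9.82, 9.75 and 9.57 in Met1 and 9.90, 9.99 and 8.64 in SSM2. NDL lay below Met1 without overlap, and SSM2 spread across both. Notch2 passed in no comparison (limma adjusted p = 0.212, 0.361 and 0.815), and 1 array decided this for the comparisons of NDL. Without SSM2 replicate 3, the lowest of all 9, Notch2 was lower in NDL than in Met1 (log2 difference -0.63, limma adjusted p = 0.00827) and than in SSM2 (-0.87, limma adjusted p = 0.00482). Between Met1 and SSM2, Notch2 was still not called in that fit, and its difference changed sign (-0.23, limma adjusted p = 0.368). With NDL and Met1 fitted alone, limma also called it between them (adjusted p = 0.0149). SSM2 replicate 3 stood apart in the marker lists too. It was the lowest SSM2 array for the means of the fibroblast list (8.71, against 10.37 and 9.54 in SSM2 replicates 1 and 2), the macrophage list (7.97, against 9.27 and 8.66) and the endothelial, T cell, adipocyte and basal epithelial lists, and the highest for the epithelial list (11.46). The part of these lists in the Notch2 values was not tested. For NDL against Met1, NDL against SSM2 and Met1 against SSM2 in turn, limma called 5, 1 and 5 of the 8 fibroblast markers and 6, 1 and 4 of the 8 macrophage markers.

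**Figure D3:**
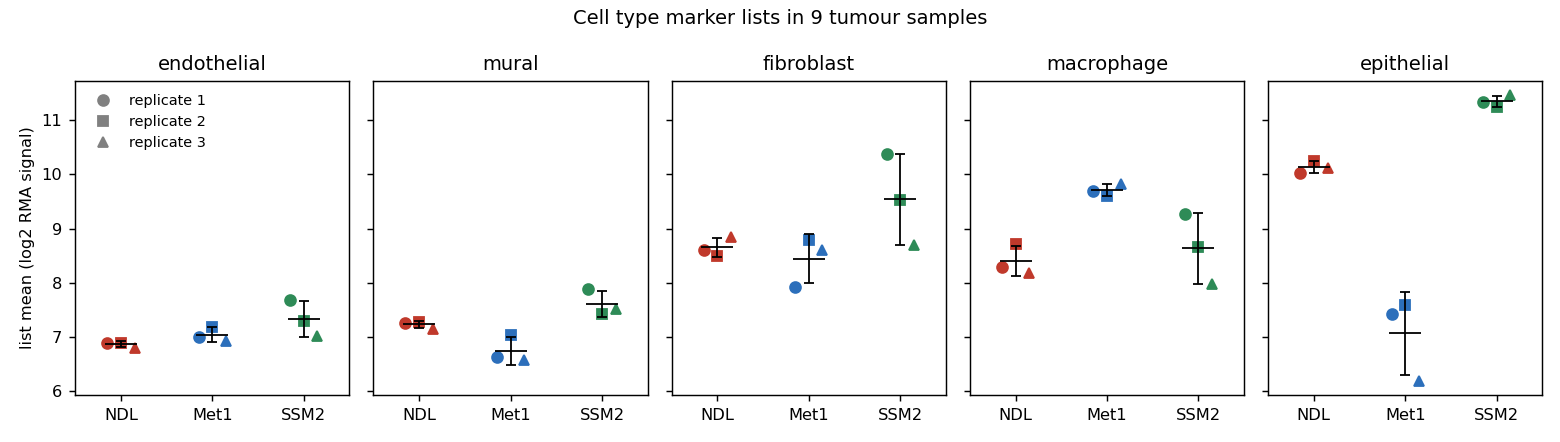
Mean log2 RMA signal (vertical axis) of 5 lists of cell type markers in NDL, Met1 and SSM2 tumour samples; marker shapes give the replicate, the long bar the mean and the error bar the SD of 3 arrays. The epithelial list is low in Met1 (6.20 to 7.59), the macrophage list is high there (9.60 to 9.82), and SSM2 replicates spread widely in the fibroblast list (8.71 to 10.37).

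Of the target genes, Hey1 stood at 9.43, 9.93 and 10.07 in NDL, 7.30, 7.65 and 6.07 in Met1 and 6.06, 6.14 and 6.32 in SSM2. As for Dll1, every NDL array lay above every other array, and Met1 and SSM2 overlapped through Met1 replicate 3. Hey1 encodes a repressor of the bHLH family and was 6.99-fold higher in NDL than in Met1 (log2 difference 2.80, SE 0.37, limma adjusted p = 0.0013) and 12.4-fold higher than in SSM2 (3.64, SE 0.37, limma adjusted p = 0.000416). Met1 and SSM2 differed by 0.83 (interval -0.01 to 1.68, limma adjusted p = 0.217), and without Met1 replicate 3 by 1.30 with a limma adjusted p = 0.0119.

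Hes1, the other target and also a bHLH repressor, did not follow Hey1. It stood at 8.94, 8.83 and 8.67 in NDL, 9.11, 9.42 and 7.82 in Met1 and 9.03, 8.78 and 9.78 in SSM2, and all lines overlapped. Its differences were 0.03 for NDL against Met1 (interval -0.91 to 0.96), -0.39 for NDL against SSM2 (-1.32 to 0.55) and -0.41 for Met1 against SSM2 (-1.34 to 0.52), with limma adjusted p of 0.973, 0.516 and 0.663.

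Within Met1, replicate 3 was the lowest array for 9 of the 10 Notch genes, Jag1 being the exception, and it was also lowest for the epithelial list and the basal epithelial list (5.36, against 6.71 and 7.06 in Met1 replicates 1 and 2). How often this array was lowest over all genes was not counted. Its upper quartile of gene signal was the highest in Met1 (8.05). The epithelial list means ran from 10.03 to 10.25 in NDL and from 11.24 to 11.46 in SSM2. Dll1 and Hey1 were high in NDL and low in SSM2. Without Met1 replicate 3, Dll1 was higher in NDL than in Met1 by 2.45 and Hey1 by 2.34 (log2), and both passed. The part of epithelial cells in the Dll1 and Hey1 results was not tested. Basal epithelial markers were higher in SSM2, where limma called 5 of 5 lower in NDL and 4 of 5 lower in Met1, and between NDL and Met1 it called 0 (0 at an unadjusted p under 0.05). The 5 adipocyte markers gave 0 limma calls in each comparison (0, 0 and 2 at an unadjusted p under 0.05).

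**Figure D4:**
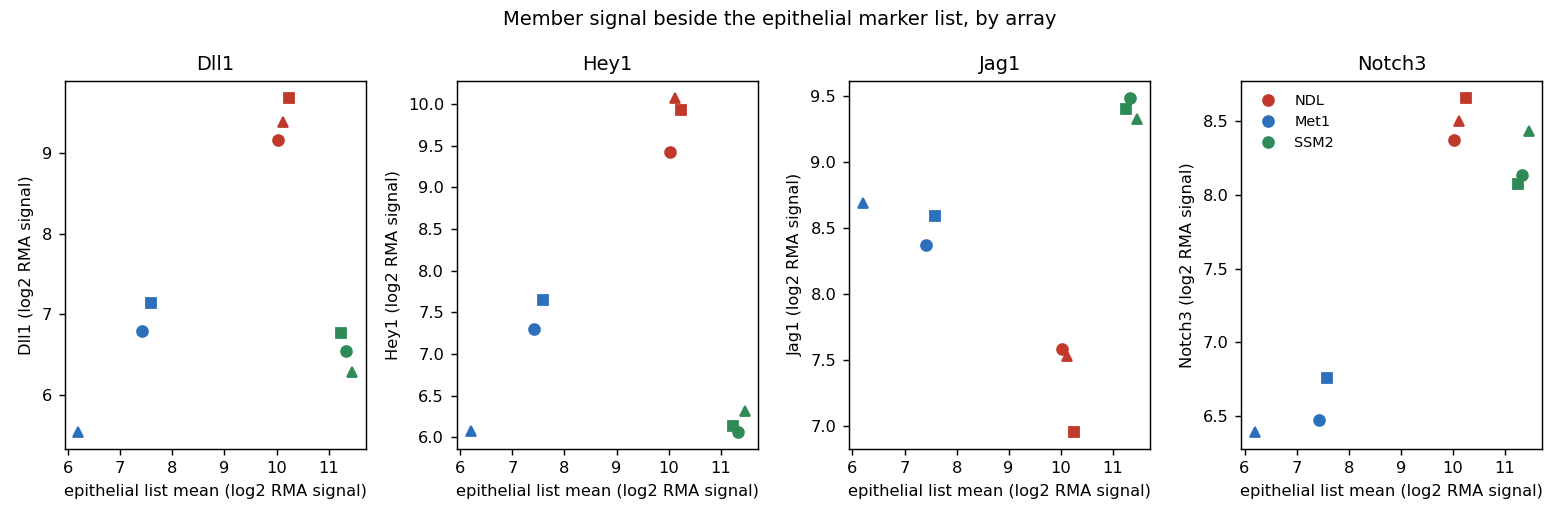
Log2 RMA signal of Dll1, Hey1, Jag1 and Notch3 (vertical axes) against the mean of 9 epithelial markers (horizontal axis) in the 9 arrays; colours give the line, and circles, squares and triangles give replicates 1, 2 and 3. NDL and SSM2 arrays both lie at high epithelial signal but far apart for Dll1, Hey1 and Jag1, and close together for Notch3.

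By the smallest root mean square difference between log2 values centred on each gene's mean over the 9 arrays, the genes most like Hey1 among 19937 were Pigr, the polymeric immunoglobulin receptor (0.32), Slc35f1 (0.38) and Clca2 (0.39). Dll1 came in 10th place for Hey1 (0.44). Those most like Notch3 were Mcf2l (0.12), Cblc (0.17) and Kdf1 (0.17), and those most like Jag1 were Casp8, an initiator caspase (0.23), Septin11 (0.24) and Slc25a30 (0.24). These distances describe 9 arrays that fall into 3 lines, so genes with like differences between lines come close.

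The rest of the pathway was read from 59 further genes in 6 lists, of which 56 were measured and 3 are not analysed here. NDL against Met1 gave 15 calls, 6 higher and 9 lower in NDL (26.8%, beside 19.1% of all genes). The nuclear partners Rbpj and Maml3 were among the lower ones. Rbpj stood at 8.60, 7.71 and 9.17 in NDL and 10.56, 10.62 and 10.75 in Met1 (log2 difference -2.15, SE 0.35, limma adjusted p = 0.00387), and Maml3, a Mastermind coactivator, fell by 1.15. Maml2, of the same family, was higher in NDL by 0.62.

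Nrarp, a feedback inhibitor of Notch that is itself a target, stood at 7.91, 7.69 and 7.91 in NDL and 7.01, 6.73 and 6.47 in Met1, without overlap. It was higher in NDL by 1.10 (SE 0.18, limma adjusted p = 0.00341), and Hey2, a relative of Hey1, by 0.70 over a Met1 mean of 4.39. That mean is under the 25th percentile of gene means, 4.91, so the size is uncertain. The ubiquitin ligase gene Dtx3 was higher by 0.97. Lower in NDL were the receptor-cutting protease Adam17 (-1.55), the Fringe glycosyltransferase Lfng (-1.06), which alters how receptors respond to ligands, the transcription factor Sox9 (-0.93), the ligand-handling ubiquitin ligase Neurl1b (-0.91), Numbl (-0.50), a relative of the Notch inhibitor Numb, and cyclin D1, Ccnd1 (-0.47). Of these 12 named calls 6 held in every fit with 1 array left out (Rbpj, Adam17, Maml3, Nrarp, Neurl1b and Maml2). Without NDL replicates 1 and 2, Nrarp (limma adjusted p = 0.055), Neurl1b (0.0879) and Maml2 (0.0768) lost the call as well. Dtx3, Hey2, Lfng, Numbl, Ccnd1 and Sox9 each ended without Met1 replicate 1, 2 or 3, and Lfng, Ccnd1 and Sox9 also without an NDL replicate. Beside the 12 named calls, Furin (0.81) and Psenen (0.65) were called higher in NDL. Rfng (-0.88), a Fringe gene like Lfng, was called lower. The limma adjusted p of these ran from 0.000278 (Rfng) to 0.0122 (Psenen).

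NDL against SSM2 gave 13 calls in the pathway, 9 higher and 4 lower in NDL (23.2%, beside 16.9% of all genes). Ccnd1 was higher in NDL by 1.90 (SE 0.12, limma adjusted p = 3.14e-05), Dtx3 by 1.04, Hey2 by 0.85 over an SSM2 mean of 4.24, also under that percentile, and Maml2 by 0.82. Adam10, the protease that makes the first cut after ligand binding, stood at 9.18, 8.31 and 10.13 in NDL and 11.75, 11.27 and 11.63 in SSM2 (-2.34, SE 0.42, limma adjusted p = 0.00673). The transcription factor Snai2 (-2.04), Lfng (-1.49) and Hes6 (-0.66), a Hes relative known to oppose Hes1, were lower too. Beside these 8 named calls, the remaining ones were all higher in NDL (limma adjusted p from 0.00511 to 0.0313). They were Sox9 (1.0), Nrarp (0.85), Ncstn (0.58), Psenen (0.54) and Rfng (0.50). Rfng was highest in Met1, with means of 7.23 in NDL, 8.10 in Met1 and 6.73 in SSM2. The Dtx3 call ended without SSM2 replicate 2 (limma adjusted p = 0.0567), and the Hes6 call without NDL replicate 1, Met1 replicate 1 or 2, or SSM2 replicate 1 or 3 (0.0532 to 0.101). The 13 pathway calls became 8 with NDL replicate 1 left out and 24 with NDL replicate 3 left out, while the share of all genes called was 9.39% and 35.2% in these fits. Without NDL replicates 1 and 2, 5 of the 8 named calls ended (Adam10, Snai2, Lfng, Hes6 and Hey2, limma adjusted p from 0.0574 to 0.0901).

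Met1 against SSM2 gave 11 calls in the pathway, 7 higher and 4 lower in Met1 (19.6%, beside 11.8% of all genes). Higher in Met1 were Ccnd1 (2.37, SE 0.12, limma adjusted p = 2.24e-05), Sox9 (1.93), Rbpj (1.51, limma adjusted p = 0.0266) and Maml3 (0.99). Lower were Snai2 (-1.94), Adam10 (-1.63, limma adjusted p = 0.0381) and Hes6 (-0.88). The remaining calls were Rfng (1.38), Aph1b (0.74) and Aph1a (0.66), higher in Met1, and Furin (-0.90), lower there. Their limma adjusted p ran from 5.76e-05 (Rfng) to 0.0296 (Aph1b). The Adam10 call ended in 7 of the 9 fits with 1 array left out and the Rbpj call in 6 of 9, each with a limma adjusted p of at most 0.13. Rbpj also lost this call when its features were averaged (0.91, limma adjusted p = 0.0556). With Met1 replicate 1 or Met1 replicate 2 left out, 7 pathway genes were called, beside 6.82% and 7.2% of all genes.

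The shares of the 56 genes called were 26.8%, 23.2% and 19.6% in the 3 comparisons. Of all genes with a mean above the 25th percentile, limma called 25.6%, 22.3% and 16.1%. Of those above the median it called 33.1%, 28.1% and 20.1%. The median log2 difference of the 56 genes was 0.03, 0.08 and 0.10 in the 3 comparisons, near that of all genes (0.06, 0.09 and 0.04). limma called 0 of the 4 further ligands Dll3, Dlk1, Dlk2 and Dner in each comparison (0 at an unadjusted p under 0.05, adjusted p from 0.209 to 0.962). The 13 genes of trafficking and turnover gave 3, 1 and 0 calls (1 at an unadjusted p under 0.05 in the last). The 13 measured genes of receptor processing and glycosylation gave 5 calls in each comparison.

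**Figure D5:**
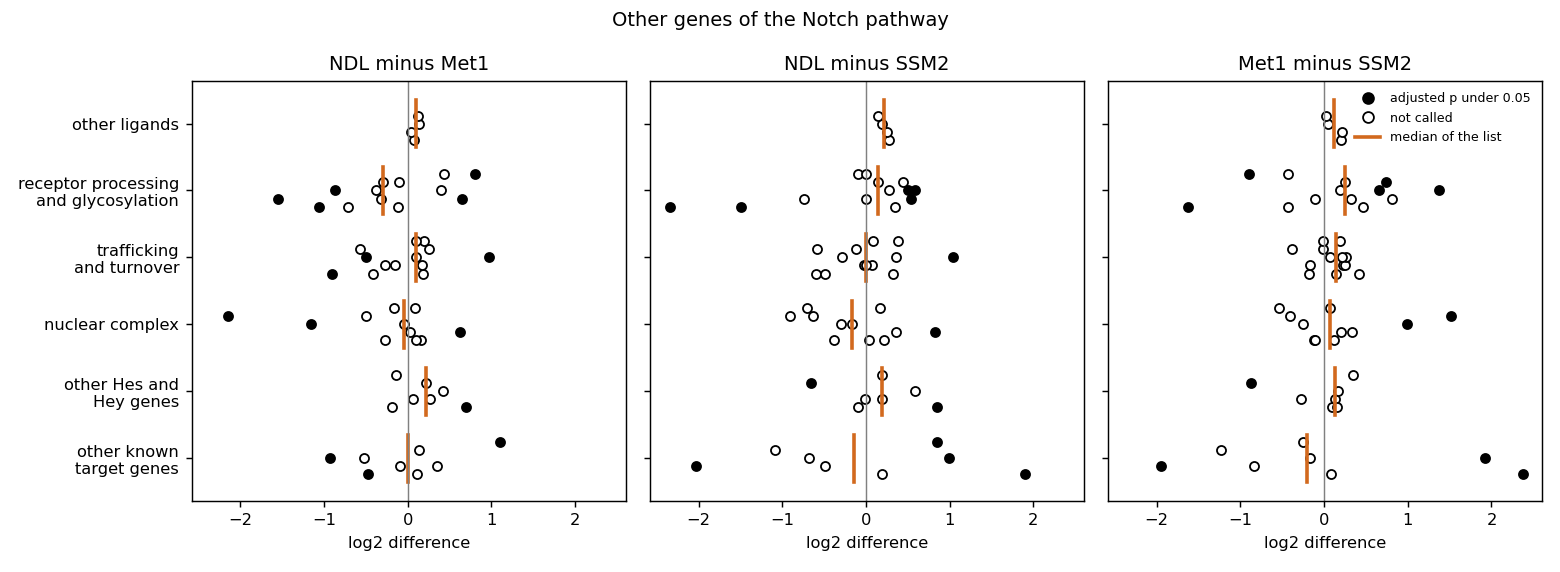
Log2 difference between lines (horizontal axis, first line minus second) of 56 other genes of the Notch pathway, grouped in 6 lists; filled points passed an adjusted p of 0.05 over all genes and the orange bar is the median of the list. Medians lie near 0 while single genes lie out to -2.34 and 2.37.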

How the data were processed

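Total RNA (100 ng a sample) from 9 tumour samples, 3 a line, was hybridised to 1 array each. The authors deposited log2 values, made by RMA with oligo 1.40.2 per the submitters' processing notes. RMA subtracts background, equalises the distributions of the arrays, which can hide a shift shared by most genes, and pools probes into features. No source used here gives array batches or a genome build. Of 35556 features, the 21789 with 1 gene symbol in GEO's platform annotation were kept (21766 of them named through RefSeq and 23 under the platform's symbol), with the feature of highest mean over the 9 arrays for each of 19938 genes and no filter on signal.

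All 9 arrays were fitted in limma 3.58.1 (R 4.3.3; lmFit and eBayes, 6 residual and 2.42 prior degrees of freedom), with 3 contrasts, two-sided, and an F-test, each adjusted by Benjamini-Hochberg over all genes and called at 0.05. Intervals cover 95% in that model. The procedure was tested on simulated data. Named genes were all Notch members in all contrasts and, of the other pathway genes, the 5 largest calls per contrast and every call of a list with 3 or fewer; for the 3 members with the smallest F-test p, the 3 genes most alike. The remaining pathway calls of each contrast were given outside this rule, and were not followed singly in the fits with arrays left out. Members, lists and rules were chosen with earlier results of these data known. Marker lists were endothelial, mural, fibroblast, macrophage, T cell, epithelial, basal epithelial and adipocyte. Alternatives were 2 filters on signal, a trend with robust fitting, 3 scalings, array weights, other choices of feature, a replicate block, 2-line fits, a minimum fold of 1.5, and arrays left out; applying them to single pathway genes was added after the data were seen. No clear pairing of arrays by replicate number was seen. Figures used matplotlib 3.10.9 and pandas 2.3.3.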

Additional observations from a re-analysis of the deposited data

How the results depend on the processing

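Of 657 recomputed differences of the 10 Notch genes, 623 kept their direction and their side of the threshold, 14 lost the call, 4 gained it and 16 changed sign; every change of sign was in a difference that did not pass. No sign changed under the filters, the trend or the replicate block. The sign changes were those of Dll4 for NDL against Met1 after quantile normalisation over genes (0.048); of Hes1 there with array weights (-0.21) and without NDL replicates 1 and 2 (-0.12); of Jag2 (-0.12) and Dll4 (-0.13) for NDL against SSM2 without NDL replicates 1 and 2; and of Dll1 for Met1 against SSM2 with array weights (0.15). With 1 array left out, differences for NDL against Met1 ran from -0.13 to 0.055 for Dll4 and from -0.46 to 0.34 for Hes1, for NDL against SSM2 from -0.064 to 0.16 for Jag2, and for Met1 against SSM2 from -0.23 to 0.44 for Notch2, -0.37 to 0.43 for Dll1 and -0.73 to 0.072 for Hes1. Against a minimum fold of 1.5 the Notch genes called numbered 3, not 5, for NDL against Met1, 3, not 4, for NDL against SSM2 and 2, not 4, for Met1 against SSM2 (Notch4 and Jag1, Notch1, and Notch4 and Jag1 lost the call), and the other pathway genes 1, 3 and 4 in the 3 comparisons, not 15, 13 and 11; this test sets a stricter null hypothesis. Without NDL replicates 1 and 2, which leaves 1 NDL array assumed to vary like the rest, 2 Notch genes were called for NDL against SSM2, and 6 and 5 other pathway genes for NDL against Met1 and against SSM2. NDL and SSM2 fitted alone gave 8 other pathway genes. With 1 array left out the pathway counts ran from 10 to 22, 8 to 24 and 7 to 12, and the Notch gene counts from 4 to 6, 4 to 5 and 3 to 5. The share of all genes called moved too: without NDL replicate 3 it was 33.3% for NDL against Met1 and 35.2% for NDL against SSM2, beside 19.1% and 16.9% with all arrays. The cause was not tested. Same-numbered arrays deviated together at r from -0.347 to 0.288 over 9 pairs, and 3 of 9 arrays correlated best with their own number. These values show no clear pairing by number, but with 3 arrays a line they cannot exclude it. With the replicate block the counts of Notch genes were 5, 4 and 4 and those of the other pathway genes 14, 12 and 8. Among the named pathway genes, Ccnd1 (NDL against Met1, limma adjusted p = 0.0561), Hes6 (NDL against SSM2, 0.0661) and Adam10 (Met1 against SSM2, 0.069) lost their calls with the block. For NDL against SSM2, Hes6 also lost its call after quantile normalisation over genes (limma adjusted p = 0.0936) and with array weights (0.0765). With these 2 lines fitted alone, Hes6 (limma adjusted p = 0.0954) and Dtx3 (0.0579) lost theirs. Jag2 lay below the median filter and has no value there.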

Other observations

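A further 6 array features carried the symbol Notch4 together with Sympk and were left out of every comparison. They hold 5 distinct sets of values, so a pair of them is the same measurement. NDL arrays had log2 signals between 7.40 and 11.19 on them, Met1 arrays between 7.40 and 9.96, and SSM2 arrays between 5.40 and 8.39. On the feature annotated with Notch4 alone, NDL arrays lay between 6.85 and 6.89, Met1 arrays between 7.14 and 7.48, and SSM2 arrays between 6.60 and 6.65. Which transcript the shared features measure was not tested.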
